A study of Mus musculus with 20 samples.

Results

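Gene symbols that end in "os", for opposite strand, name transcripts read from the other DNA strand of a host gene, whose symbol they carry. The count files of this series hold 232 rows named as another symbol of the file plus os and an optional number, among 46329 gene rows. The 88 rows described here are those with a mean of at least 5 raw counts over 20 libraries, after 3 rows (Gata5os, Il1bos and Bcas1os2) were left out. The rows were thus chosen by their level, and 141 rows lay under the minimum, 44 of them with no count in any library. Notumos was not analysed here. Just inside the minimum were Tbx3os2 (mean 6.15 counts), Uchl1os (5.95) and Hopxos (5), and just outside it Pard3bos1 (4.90), Zmiz1os1 (4.8) and Has2os (4.70).

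The study asked what the receptor kinase ERBB2, a relative of the EGF receptor, contributes to colorectal tumors of ApcMin/+ mice. The mice were C57BL/6J and 100 days old, and every group carried ApcMin, a mutation of the tumor suppressor Apc from which tumors of the gut arise, and 2 floxed copies of Erbb2. Erbb2-deficient mice also carried Tg(Vil1-cre), a cre transgene whose Villin promoter is active in intestinal epithelial cells and not in stroma or leukocytes, and control littermates had no cre. Tumors and adjacent tissue outside them were sequenced as bulk RNA, with 5 libraries in each of the 4 groups. The presence of cre and the loss of Erbb2 cannot be told apart.

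An antisense transcript may start inside its host gene, at a promoter shared with it in the opposite direction, or downstream of it. Some such transcripts act on the host through the act of transcription, through chromatin or through base pairing, and others have no known role. A stranded library keeps the strand of each read, so a counting program can give a read to the os gene or to its host, provided that it is told which strand the reads carry. The labels name a stranded library kit, and the strand setting of the counting step is not given in the sources used here. Reads on genes made up 2.51% to 3.45% of the reads of a library, and reads on no counted feature 78.6% to 85.1%. Reads of an os transcript and reads of its host therefore cannot be told apart within a row, and every value here is that of a row, not of a transcript.

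Most of the 88 os rows held more counts than the row of their host. They were kept by their own level, with no minimum for the host, so the choice of rows favors this and the counts here are a description. The mean count was higher on the os row in 68 of the 88 pairs and lower in 20, and 44 os rows held over 10 times the counts of their host. In 50 pairs the os row was the higher of the pair in all 20 libraries, and in 10 pairs it was so in none. The median os row had a mean of 53.0 counts and the median host row 9.73, although 35 host rows had a mean under 5. Counted per kilobase of exon, with exon lengths from GENCODE M21, the os row was above its host in 70 of 82 pairs.

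The highest row was Gssos2, opposite the glutathione synthetase gene Gss, with a mean of 2162 counts against 62.3 on the Gss row. It was followed by Tomm6os (1609 counts), Plet1os (1124), Rbfaos (954) and Slc13a2os (944), and these 5 rows held 40.7% of all counts on the 88 rows. Brip1os had a mean of 350.4 counts while Brip1, a DNA repair helicase gene, had 0.300. Msx1os had 88 and Msx1, a homeobox gene, 0.100. The opposite split was seen at Hoxa11os, with 78.3 counts against 2136 on Hoxa11.

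**Figure D1:**
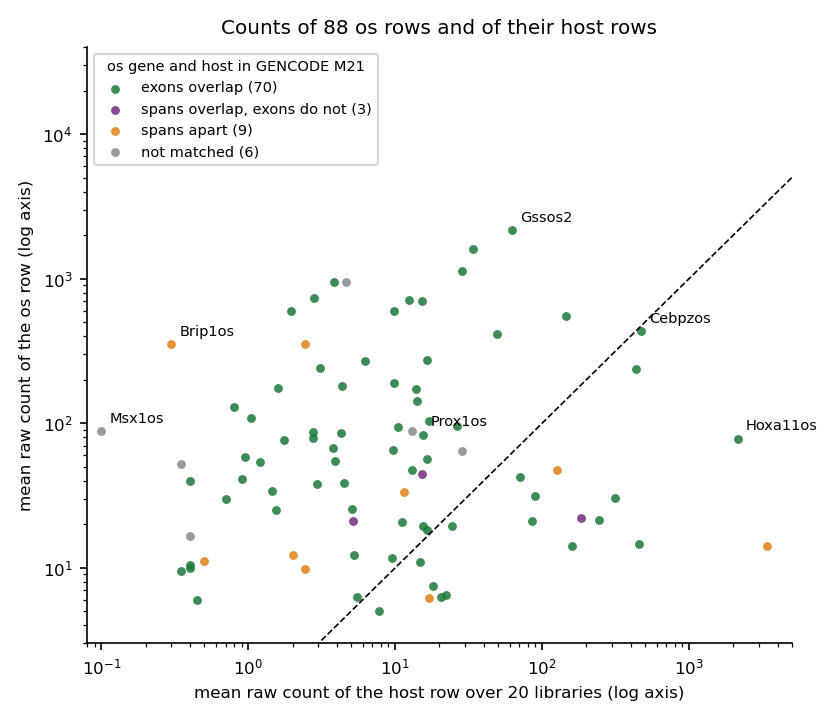
Mean raw count over 20 libraries of each os row (vertical, log axis) against that of its host row (horizontal, log axis), with 1 point per os row, the dashed line at equal counts and colors for how the os gene lies to its host in GENCODE M21. Most points lie above the line, 68 of 88, and Hoxa11os lies far to its right.

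Most of the rows had exons that lie, at least in part, opposite exons of the host. GENCODE M21, which is of another build than the files and was used for relations between genes and exon lengths only, held 82 of the 88 os genes. Of these, 70 had an exon that overlaps a host exon on the opposite strand, 3 overlapped only the span of the host, and 9 lay apart from it (5 head to head, 4 tail to tail). Any shared base counted as exon overlap. The part of the os exon length opposite host exons ran from 0.544% (Aknaos) to 79.5% (Ppifos). It was 2.42% for Evx1os, 3.63% for Tbx3os1, 16.1% for Prox1os and 53.6% for Hoxb3os. Among all 232 os rows, a mean of at least 5 counts was reached by 61.9% of the 118 rows with such an exon overlap. It was reached by 5.36% of the 56 rows whose span but no exon overlaps the host, and by 18.4% of the 49 rows apart from the host. Of all gene rows, 18.7% reached that mean. Over all 232 os rows with no minimum, the median os row lay above the median host row with exon overlap (14.4 against 4.43 counts). It lay below it with span overlap alone (0.100 against 2.75) and apart (0.150 against 2). The median exon length of these os genes was 1.70 kb with exon overlap, 0.946 kb with span overlap alone and 1.77 kb apart. Some os exons lie opposite other genes than the host: Brip1os has exons opposite Med13 and Ints2, Cd55os opposite Cd55b, and Tomm6os opposite Prickle4 as well as Tomm6, and 15 rows in all were of this kind. RefSeq lists 80 of the os genes as noncoding, 6 as protein coding (among them Cebpzos, Cdiptos, Fancd2os, Wdr83os and Slc7a6os), 1 as a pseudogene, and does not list Frmd8os.

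Start sites of an os gene and its host can also lie back to back. RefSeq start windows (GRCm38.p6, from 250 bases before to 50 after a start) existed for both genes of 59 pairs, and in 8 pairs the windows of os gene and host shared bases: Phtf1os, Ggnbp2os, B9d1os, Arhgap27os3, Tmem51os1, Wdr83os, Arl4aos and Junos. The windows of B9d1os (chr11:61505037-61505336, minus strand), Arl4aos (chr12:40037827-40038126, plus strand) and Junos (chr4:95052067-95052366, plus strand) are printed because the 3 rows changed in tumors. Each is written 5′ to 3′ on the strand of the os gene, and capitals mark the bases that also lie in the host window, which number 157, 189 and 194.
B9d1os: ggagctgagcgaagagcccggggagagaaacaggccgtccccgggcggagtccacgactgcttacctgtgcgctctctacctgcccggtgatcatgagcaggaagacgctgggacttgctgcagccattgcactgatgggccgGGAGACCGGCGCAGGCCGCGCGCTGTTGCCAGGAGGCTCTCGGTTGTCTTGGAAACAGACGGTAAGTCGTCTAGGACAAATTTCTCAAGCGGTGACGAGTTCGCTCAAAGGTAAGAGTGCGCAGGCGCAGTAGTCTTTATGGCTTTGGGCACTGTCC
Arl4aos: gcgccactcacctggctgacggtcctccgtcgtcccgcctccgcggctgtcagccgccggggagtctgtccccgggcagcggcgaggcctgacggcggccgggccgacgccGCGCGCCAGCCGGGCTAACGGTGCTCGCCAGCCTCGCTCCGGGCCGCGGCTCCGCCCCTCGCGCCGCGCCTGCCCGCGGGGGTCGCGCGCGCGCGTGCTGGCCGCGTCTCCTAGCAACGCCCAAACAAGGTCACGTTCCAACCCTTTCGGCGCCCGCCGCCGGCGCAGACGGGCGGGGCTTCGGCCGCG
Junos: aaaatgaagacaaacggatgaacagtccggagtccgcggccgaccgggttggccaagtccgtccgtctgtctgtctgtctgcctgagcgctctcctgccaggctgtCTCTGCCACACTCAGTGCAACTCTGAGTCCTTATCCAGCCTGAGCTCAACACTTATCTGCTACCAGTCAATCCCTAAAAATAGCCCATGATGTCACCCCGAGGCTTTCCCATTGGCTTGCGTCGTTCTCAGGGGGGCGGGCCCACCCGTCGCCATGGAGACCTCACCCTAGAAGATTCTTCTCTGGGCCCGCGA
The first of the RefSeq start windows of Prox1 (chr1:190170778-190171077, minus strand), the host of the os row with the largest rise, has no capitals, since it was searched for a motif that it does not hold.
Prox1: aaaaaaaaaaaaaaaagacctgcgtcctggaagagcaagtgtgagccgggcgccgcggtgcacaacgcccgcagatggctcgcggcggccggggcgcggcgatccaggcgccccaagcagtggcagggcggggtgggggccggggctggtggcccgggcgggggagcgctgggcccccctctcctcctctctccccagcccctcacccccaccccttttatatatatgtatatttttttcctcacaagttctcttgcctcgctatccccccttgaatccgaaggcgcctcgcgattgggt
The motif was CTTTGAT, a core of the sites bound by TCF and LEF factors, the DNA-binding partners of beta-catenin in Wnt signaling, searched on both strands (ATCAAAG on the other). It lies in 1225 of 32851 start windows of all genes, or 3.73%. It was in none of the 15 windows of os genes and hosts whose os row rose in tumors of both genotypes, and in none of the 18 windows of those that fell. Of the 16 genes of the first set 12 had a window, and of the 20 of the second 17. That says only that these letters are not in those windows.

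Levels are given from here on as CPM, that is, counts scaled to the depth of the tested rows of each library. Libraries held 1071737 to 1944309 counts on genes, and the 88 os rows took 0.847% to 1.96% of them. A low filter (described with the processing) passed 82 of the 88 os rows and 46 of the 86 host rows, and Arhgap15os, Zeb2os, Gata6os, Hk1os, Tbx3os2 and Hopxos did not pass. A pair of control tumors stood apart. Control tumor 2 correlated with the other libraries of its group at a median Spearman rho of 0.636 over rows, against 0.820 to 0.926 for the other 19 libraries. Its summed level of 6 epithelial marker rows was 14.5 CPM, with Epcam, Krt8, Krt18, Krt19 and Cdh1 at 0, against 228 to 595 CPM elsewhere. Its summed level of 6 leukocyte marker rows was 256 CPM, against 5.29 to 46.0 elsewhere. Control tumor 3 had summed goblet cell markers of 556 CPM, against 17.5 to 303 in the 8 tumors other than these, and summed smooth muscle markers of 498 CPM against 153 to 235. The summed epithelial marker rows thus stood at 228 to 595 CPM in 19 of 20 libraries. The limit of the unstated strand setting holds for all marker rows too. Their sums are levels of rows and do not measure amounts of cell types. The Erbb2 row had 2.69 to 10.9 CPM in control and 3.31 to 17.5 CPM in Erbb2-deficient adjacent tissue, and 0.908 to 6.98 and 0.720 to 8.19 CPM in tumors, an overlap in both tissues, so that this row does not check the genotype labels. In bulk samples, fewer cells of a type and less RNA per cell cannot be told apart.

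Some os rows were higher and others lower in tumors than in adjacent tissue, and no row was called in opposite directions in the 2 genotypes. With edgeR's quasi-likelihood test over all rows and an adjusted p under 0.05, 21 os rows were called in control mice, 10 higher and 11 lower in tumors (14 and 10 with upper-quartile scaling), or 25.6% of the 82 tested, where 21.6% of all tested rows were called. In Erbb2-deficient mice 30 os rows were called, 18 higher and 12 lower, or 36.6%, where 27.5% of all rows were called. The share in control mice is near that of all rows. The median log2 fold change over the os rows was 0.33 in control and 0.22 in Erbb2-deficient mice, against 0.07 and -0.06 over all tested rows. Without control tumors 2 and 3, 33 os rows were called in control mice, 16 higher and 17 lower, where 32.0% of all rows were called, and without control tumor 3 alone 33 as well. With only the 2 control groups in the fit, 12 were called. Shares of all rows are not given here for that fit, for upper-quartile scaling or for the fit without control tumor 3 alone. Those counts are thus not shown to be changes particular to the os rows.

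In both genotypes 8 os rows rose (B9d1os, Evx1os, Msx1os, Prox1os, Rbm3os, Slain1os, Tbx3os1 and Tmem150cos) and 10 fell (Acss2os, Arl4aos, Grin1os, Hoxb3os, Nkx2-2os, Peg3os, Ppifos, Slc13a2os, Tnfsf13os and Uchl1os). A further 3 passed in control mice alone and 12 in Erbb2-deficient mice alone, 0 were called in opposite directions, and 49 passed in neither. Shares of all tested rows called in both genotypes, in a single genotype, in opposite directions or in neither are not given here. These counts across genotypes are thus not shown to be particular to the os rows. Groups did not overlap for 11 os rows in control mice, where that held for 10.6% of all rows, and for 24 in Erbb2-deficient mice, where it held for 25.5%.

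**Figure D2:**
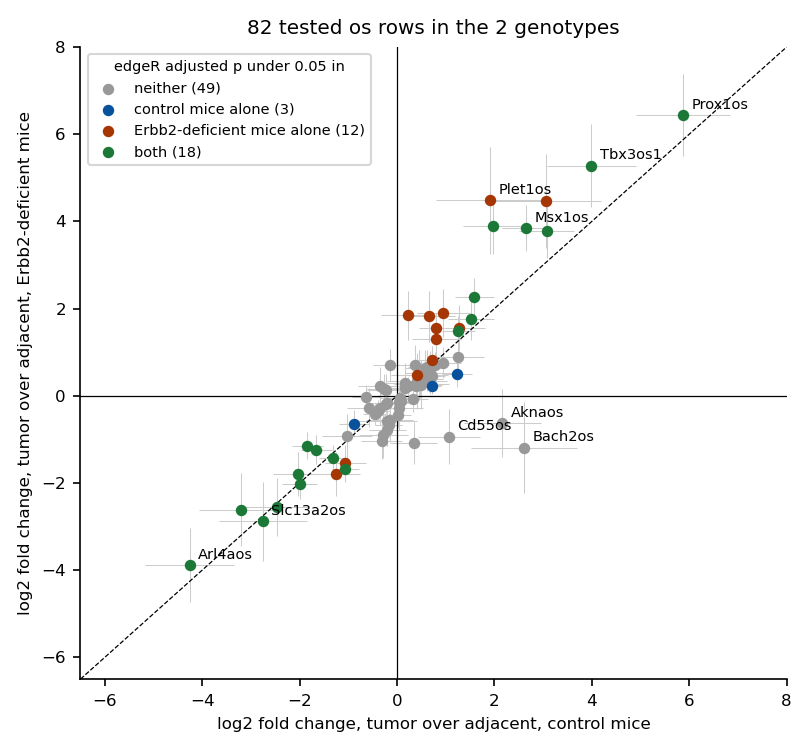
Log2 fold change of tumor over adjacent tissue in Erbb2-deficient mice (vertical) against control mice (horizontal) for the 82 tested os rows, with bars of 1 standard error and the dashed line at equal values. Rows called in both genotypes lie in the upper right and lower left, and Aknaos, Bach2os and Cd55os lie to the lower right.

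Among hosts that encode transcription factors, the largest rise was on Prox1os. Prox1, a homeobox factor, is known as a target of Wnt signaling in intestinal tumors. Prox1os stood at 0.987, 0.840, 2.29, 1.79 and 0 CPM in the 5 control adjacent libraries and at 78.9, 0, 27.6, 106 and 169 CPM in the control tumors. In Erbb2-deficient mice it stood at 0, 1.66, 1.59, 5.30 and 1.32 CPM in adjacent tissue and at 210.1, 97.0, 289.8, 127 and 140.5 CPM in tumors. Every tumor but control tumor 2, with no count, lay above all adjacent libraries. The log2 fold change was 5.87 ± 0.97 (SE, n = 5 and 5, edgeR adjusted p = 0.00038) in control and 6.44 ± 0.93 (adjusted p = 7.12e-05) in Erbb2-deficient mice. The Prox1 row was lower and went the same way: it had 32.1, 0, 1.84, 19.99 and 25.4 CPM in control tumors and 46.8, 26.1, 34.2, 20.1 and 24.5 CPM in Erbb2-deficient tumors. Of the 10 adjacent libraries, 1 had a single Prox1 count, and the host row rose in both genotypes (edgeR adjusted p = 0.00196 and 0.000187). Of a list of 20 Wnt pathway targets and inhibitors, drawn up with earlier results of these data known, Prox1 is the member with an os row here. Of its 12 tested rows, 8 rose and 0 fell in control tumors, and 9 rose and 0 fell in Erbb2-deficient tumors. Among all tested rows 10.7% rose in control and 13.0% in Erbb2-deficient tumors. As the list was drawn up in that way, its counts are a description.

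Tbx3os1 lies opposite Tbx3, a T-box repressor of development. It stood at 0.987, 3.36, 15.3, 5.38 and 2.67 CPM in control adjacent tissue and at 96.3, 0.908, 27.6, 137 and 197 CPM in control tumors. In Erbb2-deficient mice the values were 0, 1.66, 12.7, 9.08 and 3.97 CPM in adjacent tissue and 229, 163, 409, 161 and 93.7 CPM in tumors, with no overlap. Control tumor 2 was again the low one. The log2 fold changes were 3.99 ± 0.91 (SE) and 5.28 ± 0.95, with edgeR adjusted p = 0.0042 and 0.000442 in that order. The Tbx3 row rose by 3.06 ± 0.69 in Erbb2-deficient mice (edgeR adjusted p = 0.0027) and had 1.64 ± 0.71 in control mice (adjusted p = 0.103). A second row of the locus, Tbx3os2, was below the filter: it had no count in control adjacent tissue, at most 0.794 CPM in Erbb2-deficient adjacent tissue, and 3.60 to 32.1 CPM in the 5 Erbb2-deficient tumors.

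Msx1os and Evx1os are named for other homeobox genes, both factors of embryonic patterning. Msx1os stood at 20.7, 10.1, 13.0, 26.0 and 10.7 CPM in control adjacent tissue and at 105, 89.0, 42.3, 145 and 124 CPM in control tumors, with every control tumor, replicate 2 included, above every adjacent library. It went from 5.95 to 13.5 CPM in Erbb2-deficient adjacent tissue to 215, 226, 213, 52.8 and 28.8 CPM in tumors. The log2 fold changes were 2.65 ± 0.50 and 3.85 ± 0.52 (edgeR adjusted p = 0.000984 and 4.35e-05). Evx1os stood at 2.96, 3.36, 7.65, 0.896 and 5.34 CPM in control adjacent tissue and at 22.3, 0, 12.9, 19.0 and 28 CPM in control tumors, where control tumor 2 overlapped. The Erbb2-deficient values were 0.582, 4.16, 3.17, 2.27 and 1.98 CPM against 37.8, 35.8, 40.5, 23.1 and 43.2 CPM, with no overlap. The log2 fold changes of Evx1os were 1.98 ± 0.62 and 3.89 ± 0.64 (edgeR adjusted p = 0.0258 and 0.000242). The control call was lost, with adjusted p up to 0.0768, without any 1 of control adjacent 1, 2 or 4 or control tumors 1 or 5, and with a replicate block. The Evx1 row, at 0.890 to 16.1 CPM in control adjacent and 0 to 25.8 CPM in control tumors, rose in Erbb2-deficient mice (3.14 ± 0.73, adjusted p = 0.00324).

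Junos, whose start window shares bases with that of Jun, a subunit of the AP-1 factor, was low: 0.662 to 5.82 CPM in Erbb2-deficient adjacent tissue and 5.21 to 15.8 CPM in those tumors, with an overlap. It rose there by 1.90 ± 0.55 (edgeR adjusted p = 0.0136), as did the Jun row (1.89 ± 0.48, adjusted p = 0.00598). Dmrta2os, head to head with the DM-domain factor gene Dmrta2, rose by 1.30 ± 0.47 in Erbb2-deficient mice (edgeR adjusted p = 0.0437), a call that was lost in 10 of 26 alternatives.

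**Figure D3:**
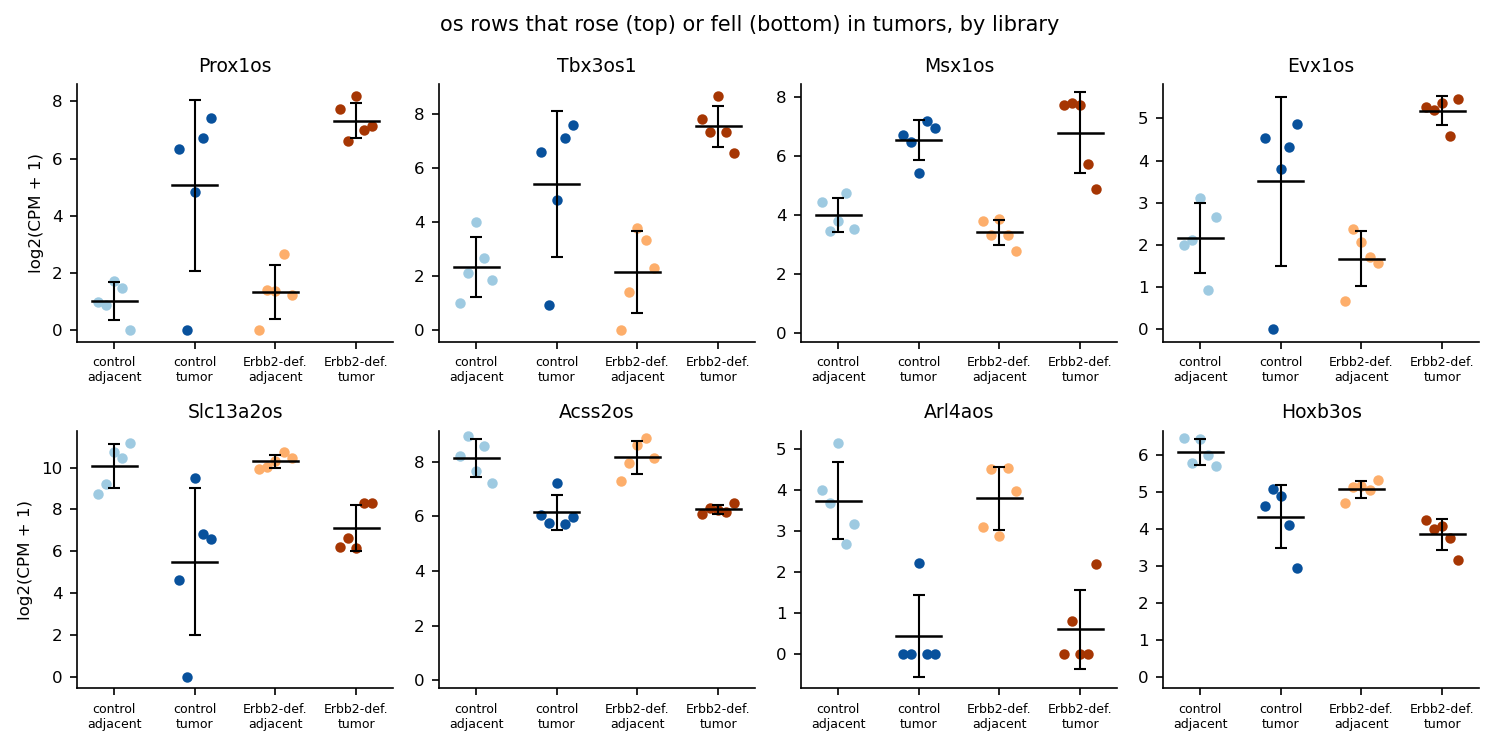
log2(CPM + 1) of 8 os rows in each library (points, in replicate order) of the 4 groups, with the mean (line) and SD (bars) of 5 libraries. The top rows are higher in tumors, apart from control tumor 2 for Prox1os, Tbx3os1 and Evx1os, and the bottom rows are lower in tumors, with control tumor 3 the highest control tumor for Slc13a2os, Acss2os and Arl4aos.

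Hoxb3os and Nkx2-2os, also named for homeobox genes, fell. Hoxb3os, opposite Hoxb3 and Hoxb2, which set position along the body axis, stood at 87.9, 54.6, 84.9, 63.6 and 51.6 CPM in control adjacent tissue and at 23.7, 32.7, 28.5, 16.2 and 6.78 CPM in control tumors, without overlap. Erbb2-deficient mice had 25, 34.1, 34.9, 32.5 and 39.0 CPM against 18.1, 14.9, 16.1, 12.7 and 7.93 CPM, again without overlap. It fell by 1.66 and by 1.24 on the log2 scale (SE 0.32 and 0.33, edgeR adjusted p = 0.00126 and 0.00764). The Hoxb3 row fell by 2.70 and by 2.84 (edgeR adjusted p = 0.00103 and 0.000645). Nkx2-2os, named for a factor of enteroendocrine cells, fell by 2.47 and by 2.55 (edgeR adjusted p = 0.0103 and 0.00659), from 13.3 to 43.7 CPM to 0 to 11 CPM in control mice, while the Nkx2-2 row had 0 to 3 counts per library. Hoxa11os, opposite Hoxa11, did not pass in either genotype (0.50 ± 0.56 and 0.26 ± 0.56), although the Hoxa11 row fell by 2.07 in control mice (edgeR adjusted p = 0.0419). That call was lost in 13 of 26 alternatives, and Hoxa11 had no count in control tumor 2. Of a list of 56 homeobox and gut transcription factors, 20 were tested. Of these, 9 fell and 0 rose in control tumors, and 8 fell and 0 rose in Erbb2-deficient tumors. Among all tested rows 10.9% fell in control and 14.5% in Erbb2-deficient tumors. The list was drawn up with earlier results known and does not hold Prox1, Evx1 or Msx1, and its members with an os row here are Hoxa11, Hoxb3, Gata6 and Zeb2. In control tumor 2, 37 of the 56 were at 0.

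B9d1os, head to head with B9d1, a gene of the ciliary transition zone, stood at 11.8, 16, 17.6, 18.8 and 11.6 CPM in control adjacent tissue and at 60.7, 9.08, 29.4, 80.0 and 50.8 CPM in control tumors. In Erbb2-deficient mice it had 5.82, 6.65, 8.73, 10.6 and 7.28 CPM against 19.6, 35.1, 32.1, 52.1 and 50.4 CPM. Apart from control tumor 2, tumors lay above adjacent tissue in both genotypes. The log2 fold changes were 1.59 ± 0.41 and 2.27 ± 0.42 (edgeR adjusted p = 0.00869 and 0.000611). The B9d1 row had 0.09 ± 0.57 in control mice (adjusted p = 0.93) and rose by 1.40 ± 0.48 in Erbb2-deficient mice (adjusted p = 0.033), a call lost in 5 of 26 alternatives.

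Tmem150cos, opposite Tmem150c, a gene of a membrane protein, stood at 6.91, 6.72, 6.12, 10.8 and 20.5 CPM in control adjacent tissue and at 118, 92.6, 8.28, 107 and 104 CPM in control tumors. Control tumor 3, not 2, was the low tumor here. The log2 fold changes were 3.07 ± 0.57 and 3.77 ± 0.60 (edgeR adjusted p = 0.000922 and 0.00016). Rbm3os, opposite the cold-inducible RNA-binding protein gene Rbm3, was among the abundant risers, with 171, 381, 433, 302 and 150.4 CPM in control adjacent tissue and 508, 757, 765, 597 and 828 CPM in control tumors, without overlap. In Erbb2-deficient mice Rbm3os had 166 to 598 CPM in adjacent tissue and 513 to 1259 CPM in tumors, with an overlap. It rose by 1.26 ± 0.34 in control and 1.48 ± 0.34 in Erbb2-deficient mice (edgeR adjusted p = 0.0116 and 0.00327). Slain1os, opposite a microtubule plus-end gene, rose by 1.52 ± 0.48 and 1.75 ± 0.47 (adjusted p = 0.0276 and 0.00948), and its control call was lost without any 1 of control adjacent 1, 3 or 5 or control tumors 2 or 5, and with only the groups compared in the fit.

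Of the protein-coding os genes, Fancd2os and Cebpzos were called in control mice. Fancd2os, opposite the DNA repair gene Fancd2, stood at 21.7, 27.7, 18.4, 17.9 and 23.1 CPM in control adjacent tissue and at 74.7, 33.6, 42.3, 58.1 and 47.4 CPM in control tumors, without overlap (log2 fold change 1.23 ± 0.31, edgeR adjusted p = 0.00777). In Erbb2-deficient mice the value was 0.50 ± 0.31 (adjusted p = 0.24). Cebpzos, at 229 to 342 CPM in control adjacent tissue and 315 to 578 CPM in control tumors, rose by 0.71 ± 0.19 (edgeR adjusted p = 0.0104), a call lost with no count filter and with only the groups compared in the fit.

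Plet1os differed widely between libraries of 1 group. Plet1 encodes a surface protein of epithelial progenitors. Plet1os stood at 46.4, 26.9, 2166, 165 and 48.9 CPM in control adjacent tissue, where replicate 3 was far above the others, and at 884, 3.63, 4842, 2315 and 1197 CPM in control tumors, where replicate 2 was far below. In Erbb2-deficient mice it stood at 43.6, 53.2, 57.1, 39.3 and 86.7 CPM in adjacent tissue and at 552, 910.1, 501, 2279.8 and 2028 CPM in tumors. The log2 fold change was 4.48 ± 1.23 in Erbb2-deficient mice (edgeR adjusted p = 0.0103, and 0.0595 with no count filter, where the call was lost). In control mice it was 1.91 ± 1.10 (adjusted p = 0.225) and, without control adjacent 3, 4.68 (adjusted p = 0.00484). The Plet1 row was also highest in control adjacent 3 among the adjacent libraries (36.7 CPM against 0.890 to 10.9) and in control tumor 3 among the tumors (90.1 CPM).

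Another 9 os rows rose in Erbb2-deficient mice and passed no threshold in control mice, besides Plet1os. Dmrta2os and Junos are described above. Nckap5los rose by 1.56 ± 0.34 (edgeR adjusted p = 0.00222), from 7.48 to 12.9 CPM in adjacent tissue to 18.7 to 45.3 CPM in tumors. Chn1os3, opposite a Rac GTPase-activating gene, rose by 1.85 ± 0.56 (adjusted p = 0.0185), and its control tumors ranged from 3.63 CPM in replicate 2 to 126 CPM. Cep112os1 rose by 4.46 ± 1.08 (adjusted p = 0.00442) from at most 2.38 CPM. Kcnmb4os1 and Kcnmb4os2, both opposite the potassium channel subunit gene Kcnmb4, rose by 1.82 ± 0.58 and 1.56 ± 0.53 (edgeR adjusted p = 0.0249 and 0.0319). Tomm6os, named for a subunit of the mitochondrial import complex, rose by 0.48 ± 0.16 (adjusted p = 0.0325) and Tbc1d22bos by 0.83 ± 0.30 (adjusted p = 0.042). Leaving out 1 library ended the call of Chn1os3 for Erbb2-deficient tumor 3, of Kcnmb4os1 for adjacent 2, 4 or 5 or tumor 3, of Kcnmb4os2 for adjacent 1, 3 or 5 or tumors 1 or 3, of Tomm6os for adjacent 1 or 2 or tumors 2 or 4, and of Tbc1d22bos for adjacent 1, 2 or 5 or tumors 3, 4 or 5.

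The 49 os rows called in neither genotype had mean counts from 11 to 2162, with a median of 66.9. Their log2 fold changes ran from -1.03 (Arhgap27os3) to 2.61 (Bach2os) in control mice, where 31 lay within 0.5 of zero. In Erbb2-deficient mice they ran from -1.19 (Bach2os) to 0.88 (Slc7a6os), and 30 lay within 0.5 of zero. Rbfaos and Gssos2 are the most abundant of them.

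Slc13a2os, opposite Slc13a2, which encodes a sodium-coupled transporter of citrate and dicarboxylates, stood at 422, 593, 1730.4, 1403 and 2348 CPM in control adjacent tissue and at 23.7, 0, 738, 111 and 94.9 CPM in control tumors. In Erbb2-deficient mice it stood at 994, 1059, 1296, 1702 and 1422 CPM in adjacent tissue and at 72.5, 97.7, 70.5, 319 and 318 CPM in tumors. Control tumor 3 overlapped the adjacent range and the Erbb2-deficient groups did not overlap. It fell by 2.75 and by 2.88 on the log2 scale (SE 0.90 and 0.91, edgeR adjusted p = 0.0341 and 0.0225). Leaving out any 1 of 6 control libraries (adjacent 3, 4 or 5, tumors 1, 4 or 5) or of Erbb2-deficient tumors 1, 2 or 3 ended the call in that genotype. Over all alternatives the adjusted p reached 0.164 in control and 0.111 in Erbb2-deficient mice.

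Acss2os, opposite the acetyl-CoA synthetase gene Acss2, stood at 297, 496, 199.7, 382 and 150.4 CPM in control adjacent tissue and at 64.9, 52.6, 149.9, 51.4 and 62.7 CPM in control tumors. Erbb2-deficient mice had 158, 249, 389.7, 466 and 279 CPM against 66.5, 79.1, 74.0, 70.0 and 90.1 CPM. Neither genotype overlapped, and control tumor 3 came closest. It fell by 2.0 and by 2.02 (SE 0.36 and 0.35, edgeR adjusted p = 0.000612 and 0.000375), and the Acss2 row had 0 to 11 counts per library. Ppifos, opposite the gene of mitochondrial cyclophilin D, stood at 521, 741, 943, 718 and 637 CPM in control adjacent tissue and at 200.3, 225, 712, 294 and 278 CPM in control tumors, where replicate 3 overlapped. It fell by 1.06 and by 1.67 (SE 0.28 in both, edgeR adjusted p = 0.0099 and 0.00027), and the control call was lost with only the groups compared in the fit (adjusted p = 0.071).

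Arl4aos, whose start window overlaps that of Arl4a, a small ARF-like GTPase gene, stood at 14.8, 11.8, 34.4, 5.38 and 8.01 CPM in control adjacent tissue and had no count in 4 of 5 control tumors, with 3.68 CPM in replicate 3. In Erbb2-deficient mice it stood at 7.56, 21.6, 6.35, 21.9 and 14.6 CPM in adjacent tissue and at 0, 0.746, 0, 0 and 3.60 CPM in tumors. The groups did not overlap in either genotype, and the log2 fold changes were -4.26 ± 0.91 and -3.89 ± 0.85 (edgeR adjusted p = 0.00261 and 0.00214). The Arl4a row had 0 to 5.36 CPM over all libraries and was below the filter. With so few counts in tumors the size of the fall is uncertain.

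The remaining rows that fell in both genotypes are named for a cytokine, a receptor subunit, an imprinted gene and a ubiquitin hydrolase. Tnfsf13os, opposite Tnfsf13, which encodes the B cell factor APRIL, stood at 278, 346, 309, 452 and 289 CPM in control adjacent tissue and at 108, 70.8, 228, 162 and 107 CPM in control tumors. It fell by 1.31 and by 1.43 (SE 0.30 in both, edgeR adjusted p = 0.00426 and 0.00159), without overlap in either genotype. The Tnfsf13 row fell by 1.81 and by 2.07 (edgeR adjusted p = 0.0169 and 0.00707). Grin1os, opposite the NMDA receptor subunit gene Grin1, stood at 38.5, 25.2, 25.2, 17.9 and 32.9 CPM in control adjacent tissue and at 11.9, 3.63, 11, 5.71 and 5.93 CPM in control tumors. It fell by 1.84 and by 1.15 (SE 0.32 and 0.31, edgeR adjusted p = 0.000468 and 0.00825), without overlap. The far higher Grin1 row, at 121 to 285 CPM in the 19 libraries other than control tumor 2 (3.63 CPM), had -0.27 ± 0.51 and -0.08 ± 0.51. Peg3os, named for an imprinted zinc finger gene, fell by 2.03 and by 1.80 (edgeR adjusted p = 0.00869 and 0.0123), and Uchl1os, named for a neuronal ubiquitin hydrolase, fell by 3.21 and fell by 2.61 (adjusted p = 0.0109 and 0.0258) from 0 to 17.8 CPM in adjacent tissue. The Erbb2-deficient call of Uchl1os was lost without adjacent 2 or 5 or tumors 2 or 4. Of the neuron and glia markers 0 of 4 were tested, and their sum was 1.98 to 10.1 CPM in adjacent tissue and 0.698 to 7.36 CPM in tumors.

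A further 3 rows were called as lower in tumors in a single genotype. Frs3os fell in control mice by 0.89 (edgeR adjusted p = 0.0448), and 19 of 26 alternatives ended that call. Hectd2os and Rapgef3os2, the latter opposite the cAMP sensor gene Rapgef3, fell in Erbb2-deficient mice by 1.79 and by 1.55 (adjusted p = 0.0119 and 0.0101). In control mice Hectd2os had 34.4 to 86.9 CPM in adjacent tissue and 11.9, 82.6, 21.2, 19.0 and 9.32 CPM in tumors. Rapgef3os2 had 32.3 to 75.7 CPM against 14.7, 9.99, 55.2, 17.1 and 22.0 CPM there. Beside all rows that fell, the summed smooth muscle markers, of which 5 of 5 fell in both genotypes, were 560.1 to 970.0 CPM in control adjacent and 609 to 801 CPM in Erbb2-deficient adjacent tissue, against 155 to 498 and 153 to 235 CPM in tumors. Of the goblet markers 3 of 5 fell in control and 4 of 5 in Erbb2-deficient tumors. Among all tested rows 10.9% fell in control tumors, and 14.5% fell and 13.0% rose in Erbb2-deficient tumors. Of the colonocyte markers 2 of 2 tested fell in both genotypes, of the fibroblast markers 1 of 3 tested rose in Erbb2-deficient mice, and of the epithelium and leukocyte markers 0 of 6 and 0 of 1 tested were called, while 0 endothelium markers were tested. Their part in these rows was not tested. Of a list of 9 transcripts that lie opposite a gene, such as Tsix, Kcnq1ot1 and Hoxa11os, 8 had a row and 4 were tested, and 0 were called in either genotype.

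No pair had its os row and its host row called in opposite directions, but few pairs had both rows called. Both rows were tested in 43 pairs. In control mice both were called in 3 pairs (Prox1os, Hoxb3os and Tnfsf13os), the os row alone in 6, the host row alone in 7 and neither in 27. In Erbb2-deficient mice both were called in 10 pairs, the 3 above and Plet1os, Tbx3os1, Chn1os3, Rapgef3os2, B9d1os, Evx1os and Junos, each with its host in the same direction. The os row alone was called in 3 pairs, the host row alone in 10 and neither in 20. Of the 46 tested host rows, 11 (23.9%) were called in control and 21 (45.7%) in Erbb2-deficient mice. Among all tested rows these shares were 21.6% and 27.5%. Such counts for pairs of other rows, and shares of all rows called in both genotypes, are not given here. The pair counts and the loci below are thus not shown to be particular to os rows and their hosts.

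Loci where the host row alone was called in both genotypes were those of Gss, Galnt6, Abhd11, Arhgap27, Bach2 and Rptor. The Bach2 and Rptor rows rose and the others fell. In Erbb2-deficient mice the Bach2 mean went from 1.39 CPM in adjacent tissue to 10.2 CPM in tumors. That of Bach2os, not called, went from 17.5 to 7.54 CPM. Means also parted at Tomm6os, which was called and rose there, while Tomm6, not called, went from 27.5 to 21.2 CPM. The row of Gss, the last enzyme of glutathione synthesis, stood at 62.2, 76.4, 89.5, 60.0 and 77.4 CPM in control adjacent tissue and at 10.5, 15.4, 26.7, 8.57 and 7.62 CPM in control tumors. It fell by 2.41 and by 2.45 (SE 0.31 in both, edgeR adjusted p = 3.58e-05 and 1.79e-05). Gssos2 stood at 1305, 1722, 1800.0, 2642 and 902 CPM and at 1913, 127, 2868, 2232 and 2253 CPM in the same groups, with log2 fold changes of 0.17 ± 0.46 and 0.29 ± 0.46 (adjusted p = 0.837 and 0.679). The lowest Gssos2 value was again control tumor 2. The row of Galnt6, a mucin-type glycosyltransferase gene, fell by 2.77 and by 3.08 (edgeR adjusted p = 0.000894 and 0.000246), and Galnt6os had -0.31 ± 0.42 and -1.04 ± 0.42 (adjusted p = 0.633 and 0.0728). The difference between the 2 rows of a pair was not tested.

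**Figure D4:**
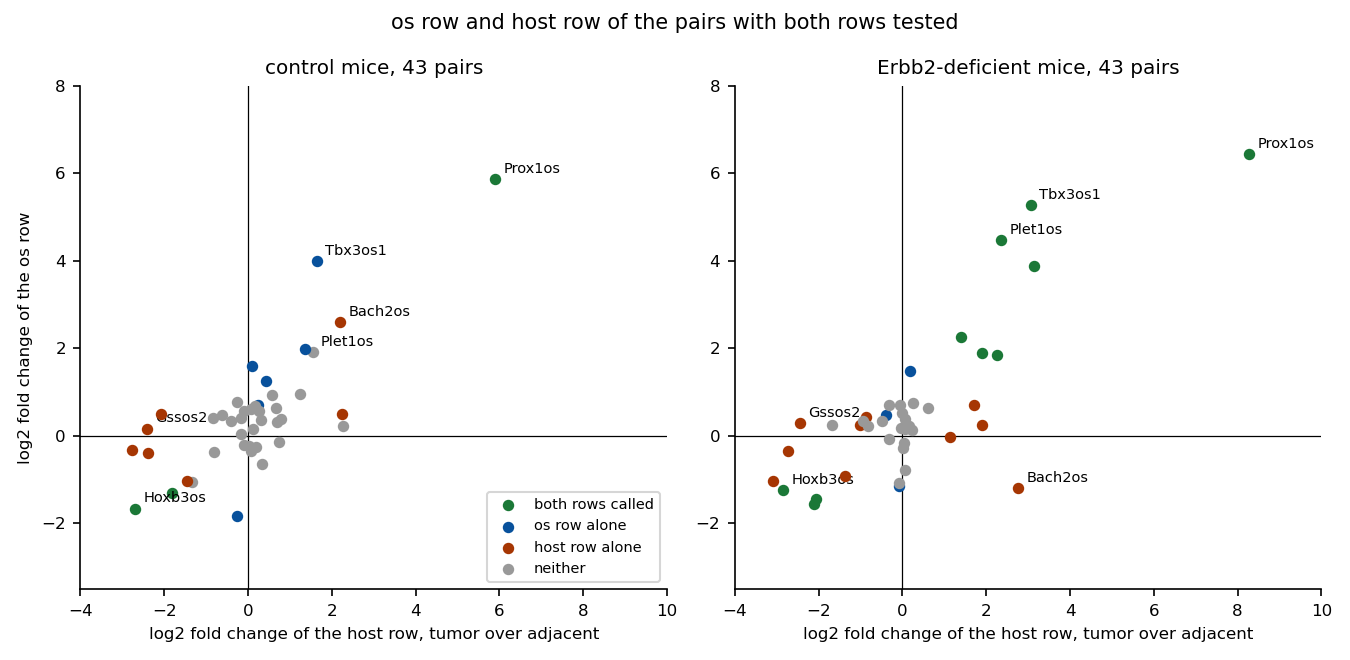
Log2 fold change of tumor over adjacent tissue of the os row (vertical) against that of its host row (horizontal) for the 43 pairs with both rows tested, in control mice (left) and Erbb2-deficient mice (right), colored by which row was called. The pairs called on both rows lie in the upper right or lower left, and Gssos2 lies at the left near zero on the vertical axis.

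The mean share of pair counts that lay on the os rows was higher in tumors, a description with no test. Summed over the pairs, os rows held 59.8% ± 5.06 (SD, n = 5) of the counts in control adjacent tissue, 70.7% ± 3.48 in control tumors, 60.1% ± 6.53 in Erbb2-deficient adjacent tissue and 69.8% ± 2.10 in Erbb2-deficient tumors. Control tumors (65.9% to 75.7%) did not overlap control adjacent tissue (53.2% to 64.1%), while Erbb2-deficient tumors (66.9% to 72.7%) overlapped their adjacent tissue (51.9% to 67.2%). Per kilobase of exon the shares were 76.8%, 88.3%, 76.6% and 87.5% in the same order. The pooled share weighs host rows with many counts most. Hoxa11, whose row fell from a mean of 2618 CPM to 623 CPM in control mice, is among them. Its row summed to 15158 counts in control adjacent tissue and 3696 in control tumors, and to 18299 and 5561 in Erbb2-deficient mice. Abhd11 summed to 3566 and 667, and to 3918 and 559, in the same order. Mkrn2, the host row of highest mean, summed to 15704 and 17079, and to 17602 and 17118. The share without these rows is not given here, so the difference is not shown to be general to the os rows.

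Between genotypes no os row passed the threshold. In tumors, edgeR's quasi-likelihood test called 0 of 82 os rows (0% of all rows), as did DESeq2, and 8 os rows had an unadjusted p under 0.05, against 11.5% of all rows. In adjacent tissue it called 0 os rows (0% of all rows), as did DESeq2, with 7 under an unadjusted 0.05, against 5.87% of all rows. The test of whether the tumor difference itself differs between genotypes called 0 os rows (0% of all rows), again as did DESeq2, with 6 under an unadjusted 0.05, against 4.07% of all rows. A call in 1 genotype alone, above, is thus not shown to be particular to it.

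The smallest p in tumors and in the test of the difference was that of Aknaos, and all 5 rows of smallest p in tumors had their highest value in control tumor 2, by a wide margin for Aknaos, Bach2os and Cd55os and by a small one for Cebpzos and Rbfaos. Akna and Bach2 encode regulators of lymphocyte genes, and Cd55 encodes a complement inhibitor of cell surfaces. Aknaos stood at 19.5, 698, 18.4, 42.8 and 32.2 CPM in control tumors and at 15.7 to 81.8 CPM in the 15 libraries of the other groups. Bach2os stood at 2.79, 182, 0.920, 2.86 and 0.847 CPM in control tumors, and Cd55os at 50.3, 1668, 305, 100.0 and 145 CPM. Arhgap15os, named for a Rac regulator of leukocytes and below the filter, had 119 CPM in control tumor 2 and at most 9.52 CPM elsewhere. In each case replicate 2 was several times above every other library. The log2 difference of Erbb2-deficient from control tumors was -2.60 ± 0.80 for Aknaos (edgeR adjusted p = 0.211, from 0.0861 to 0.985 over its alternatives), and -0.07 without control tumor 2. For Cd55os it was -1.48 ± 0.63 (adjusted p = 0.366), and it was 0.12 without control tumor 2. In that library the leukocyte markers stood at 256 CPM and 5 of 6 epithelial markers at 0, as given above, and their part in these rows was not tested.

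**Figure D5:**
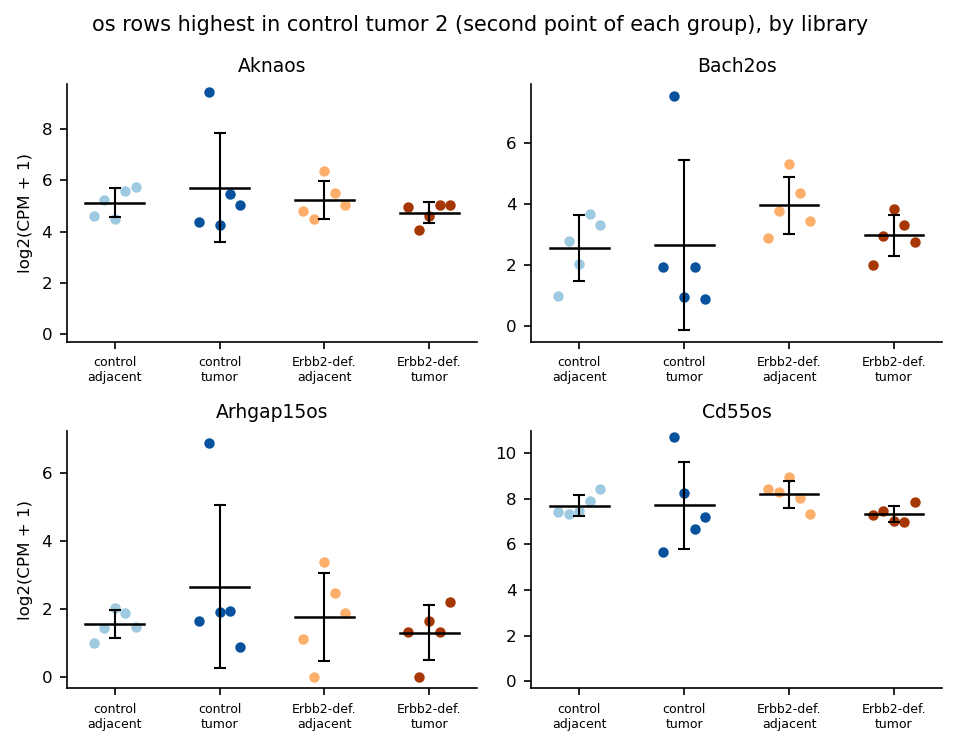
log2(CPM + 1) of 4 os rows in each library (points, in replicate order) of the 4 groups, with the mean (line) and SD (bars) of 5 libraries. Control tumor 2, the second point of the control tumors, lies above every other library in all 4 panels.

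Cebpzos and Rbfaos had lower means in Erbb2-deficient tumors, with log2 differences of -0.47 ± 0.19 and -0.39 ± 0.16 that did not pass the test (edgeR adjusted p = 0.319 and 0.335), and of -0.37 and -0.31 without control tumor 2. Cebpzos stood at 423, 578, 315, 577 and 439.7 CPM in control and 360.4, 337, 333, 333 and 317 CPM in Erbb2-deficient tumors, which overlapped. Rbfaos, named for a mitochondrial ribosome assembly gene, had 695 to 1021 CPM against 607 to 745 CPM. Groups did not overlap for Prkag2os1 alone, with 17.5 to 34.9 CPM in control and 13.0 to 16.6 CPM in Erbb2-deficient tumors, and this held for 2.12% of all rows.

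In adjacent tissue the smallest p was that of Hoxb3os. Its control values, 51.6 to 87.9 CPM, lay above all Erbb2-deficient values, 25 to 39.0 CPM, with a log2 difference of -1.05 ± 0.31 (edgeR adjusted p = 0.529). Plet1os had -3.13 ± 1.16 (adjusted p = 0.728), where control adjacent 3 held 2166 CPM. Lrrc75aos1 had -0.93 ± 0.37, Itpr3os, named for an inositol trisphosphate receptor gene, 0.72 ± 0.31, and Tomm6os -0.37 ± 0.16 (edgeR adjusted p = 0.797 to 0.808). Groups did not overlap for Hoxb3os, B9d1os, Chn1os3 and Fam219aos, all lower in Erbb2-deficient mice, and this held for 1.53% of all rows. In the test of the difference between genotypes, Evx1os had 1.90 ± 0.90 and Peak1os -1.42 ± 0.68 (edgeR adjusted p = 1.0 for both).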

How the data were processed

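RNA was measured in 20 libraries of 4 groups, with groups and replicate numbers from the labels. The deposited files hold unnormalized read counts per gene symbol, and per the submitters' processing notes Trimmomatic, HISAT2 2.2.1, HTSeq 2.0.2, DESeq2 and build mm39 were used. The strand setting is not given in the sources used here. Libraries held 1071737 to 1944309 counts on genes (median 1258396), and 5 summary rows that name no gene were left out, of which reads on no feature made up 78.6% to 85.1% of the reads of a file. In all, 0 columns of per-sample values were not used.

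Counts were tested in R 4.3.3 with edgeR 4.0.16: filterByExpr with a minimum count of 10 (7119 rows kept), TMM scaling, a means model of the 4 groups over all 20 libraries, a robust quasi-likelihood fit, and Benjamini-Hochberg adjustment over all kept rows at 0.05. Every adjusted p in the text is from this edgeR fit unless DESeq2 (1.42.0) is named. The SE is the log2 fold change divided by the square root of F. CPM values use the TMM-scaled sum over kept rows as the depth. The pipeline was tested on simulated data. Since the labels do not tie libraries to single mice, the p-values describe only how these libraries vary.

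The os rows and all gene lists were chosen with earlier results of these data known. Rows were named by a rule: Prox1os, the 10 smallest p in each tumor comparison, the 5 smallest p in each genotype comparison and in the interaction, the 5 highest means, the 3 rows on each side of the minimum, and their hosts. All other rows were named after their values were seen. Alternatives were DESeq2, upper-quartile scaling, no count filter, only the groups compared, leaving out control tumors 2 and 3 or each library in turn, a replicate block, a minimum mean of 10 counts and, added after seeing the data, counts per kilobase of exon. Start windows are from RefSeq (GRCm38.p6).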

Additional observations from a re-analysis of the deposited data

Results flagged for a closer look

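A library was singled out where its distance to the nearest other library of its group exceeded Dixon's limit for 5 samples (0.71 of the group's range). Of 124 groups of 31 named rows, 14 held such a library. For normally distributed values chance does this in about 1 in 20 groups. That rate is not known to hold for the CPM values used here, some of them low or 0. Where all other libraries are at 0, any count is singled out. Rows of 1 library are also not independent. Control tumor 3 accounted for 5: Slc13a2os with 738 CPM (the other control tumors 0 to 111), Ppifos with 712 (200.3 to 294), Acss2os with 149.9 (51.4 to 64.9), Arl4aos with 3.68 (all others 0) and Tmem150cos with 8.28 (92.6 to 118). In these rows control tumor 3 was nearer to adjacent tissue than the other control tumors, and its goblet and smooth muscle markers were the highest of the tumors. Control tumor 2 accounted for 3, all high: Cd55os with 1668 CPM (50.3 to 305), Aknaos with 698 (18.4 to 42.8) and Bach2os with 182 (0.847 to 2.86).

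Single libraries stood apart in 6 other groups. Plet1os had 2166 CPM in control adjacent 3, where the other control adjacent libraries had 26.9 to 165. Lrrc75aos1 had 33.2 CPM in Erbb2-deficient adjacent 1, against 17.4 to 21.6. Arl4aos had 3.60 CPM in Erbb2-deficient tumor 5, against 0 to 0.746, and Tbx3os2 had 0.794 CPM in Erbb2-deficient adjacent 3, against 0. Of the rows just under the minimum, Zmiz1os1 had 15.4 CPM in control tumor 1, against 1.82 to 5.71, and Has2os had 21.6 CPM in Erbb2-deficient tumor 3, against 0.720 to 6.70. The low values rest on few counts, 1 for Tbx3os2.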

How the results depend on the processing

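The count of os rows called in control mice, 21, was 12 with only the groups compared in the fit, 33 without control tumors 2 and 3, and 18 to 33 when 1 library was left out (lowest without control tumor 5, highest without control tumor 3). DESeq2 gave 27, upper-quartile scaling 24, no filter 20 and a minimum mean of 10 counts 19. In Erbb2-deficient mice the count, 30, was 24 to 35 over all alternatives and 24 to 33 when 1 library was left out. The 3 genotype counts were 0 throughout. Apart from those given above, shares of all rows called under the alternatives are not given here, and the counts can move with them. The share of pair counts on os rows, 65.1% over all libraries, was 82.3% per kilobase of exon. The same with exon lengths of the files' own build was not run.

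With a replicate block the control count was 22 and the Erbb2-deficient count 28. Whether equal numbers mark the same mouse is not stated, and the samples were not treated as pairs: same-numbered tumor and adjacent libraries correlated at -0.115 to 0.37 in their deviations from group means, and 4 of 10 tumors correlated best with their own number.

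Of 668 log2 fold changes of named rows in control mice, 625 kept direction and side of the threshold, 17 lost the call, 10 gained it and 16 changed sign. In Erbb2-deficient mice these were 648, 15, 4 and 4 of 671. Without control tumors 2 and 3, tumor over adjacent in control mice became -0.21 for Aknaos, -1.13 for Cd55os, -1.45 for Bach2os, -0.63 for Peak1os and 0.30 for Lrrc75aos1; the difference between tumors became 0.76 for Cd55os and 1.79 for Bach2os, and the interaction 0.26 and 0.34. Leaving out 1 library at a time, tumor over adjacent in control mice ran from -0.38 to 2.52 for Aknaos, -0.53 to 1.41 for Cd55os, -1.66 to 3.03 for Bach2os and -0.06 to 0.60 for Peak1os, with the lowest value without control tumor 2 in each, from -0.37 to 0.10 for Lrrc75aos1 and from -0.04 to 0.46 for Gssos2. The difference between tumors ran from -1.81 to 0.12 for Cd55os and -2.68 to 1.96 for Bach2os, and the interaction from -4.20 to 0.50 for Bach2os, with the highest value without control tumor 2 in each. Itpr3os in Erbb2-deficient mice ran from -0.24 to 0.21. With the block, Cd55os was -0.17 and Gssos2 -0.07 in control mice and Itpr3os 0.06 in Erbb2-deficient mice. The cause of the other changes of sign was not tested. The median depth of 1258396 counts leaves the low rows with a few counts a library, which limits what can be detected there.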
